A study of Ovis aries with 9 samples.

Results

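The genes described here encode the subunits of the AMPA and NMDA glutamate receptors, measured in the hypothalamus of Dolang sheep around the first estrus. The 4 AMPA subunit genes GRIA1, GRIA2, GRIA3 and GRIA4 and the 6 NMDA subunit genes GRIN1, GRIN2A, GRIN2B, GRIN2C, GRIN2D and GRIN3A were chosen by name. These 10 are among 21284 genes with RefSeq mRNA rows in the table, and together they hold 53 of its 76684 such transcripts. Polyadenylated RNA of 9 ewes, purified from total RNA, was sequenced, 1 library per animal, with 3 animals each at prepuberty (median age 120 days), puberty (130 days) and postpuberty (150 days). All were untreated females of the same breed, so that the stages differ in age and reproductive state together, and these cannot be told apart. Levels are given in FPKM, fragments mapped to a transcript scaled by its length and by the depth of the library. This unit allows the level of one gene to be set beside that of another. The FPKM of all RefSeq mRNA transcripts of a gene were summed. Transcripts assembled without a RefSeq identifier may hold reads of the same loci and are not in the sums, so that levels, shares and ratios cover the RefSeq transcripts alone.

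Both receptor classes are ion channels opened by glutamate, the main excitatory transmitter of the brain. AMPA receptors, built from GRIA subunits, carry the fast excitatory current, and the edited GRIA2 subunit keeps calcium from passing. NMDA receptors need GRIN1 in every channel and add GRIN2 or GRIN3 subunits, which set their kinetics, their block by magnesium and their calcium entry. In the hypothalamus glutamate excites many neuroendocrine neurons, and NMDA receptor agonists are known to stimulate the secretion of gonadotropin-releasing hormone in prepubertal mammals.

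The library Puberty 2 stood apart from the others before any subunit was examined. It had 15577 genes above 0, against 17180 to 17763 in the other 8 libraries, and its summed FPKM over all rows was 599726, against 359588 to 398109. Mapped reads ranged from 20624219 to 23966519 in the 8 libraries and were 19347227 in Puberty 2. A listed 0 is therefore not taken as absence, as 32 genes with at least 10 FPKM in each of the other 8 libraries were listed at 0 in Puberty 2. Levels, shares and the stage comparisons that involve puberty are given with and without this library, and relations across libraries without it. The tissue label was set against 12 hypothalamic markers, of which 8 had a median under 1 FPKM. GHRH, AGRP, PMCH, SIM1 and NKX2-1 stayed under 1 FPKM in every library. Detected in all 9 were POMC (median 4.37 FPKM), NPY (5.10 FPKM), TRH (8.11 FPKM), AVP (1.35 FPKM), OXT (0.889 FPKM) and HCRT (0.616 FPKM). Markers of neighbouring regions varied as well, from 0.125 to 203 summed FPKM for the pituitary, 1.12 to 59.1 for cortex, hippocampus and amygdala neurons and 6.10 to 61.0 for thalamus neurons. The pituitary marker PRL was highest in Postpuberty 1 (199.5 FPKM), Puberty 3 (77.8 FPKM) and Postpuberty 2 (74.4 FPKM). In these libraries POMC was at 17.4, 12.8 and 10.7 FPKM. POMC was highest in Puberty 2 (22.4 FPKM), where PRL was at 2.65 FPKM. The part of pituitary tissue in the POMC levels was not tested. The thalamus sum was highest in Prepuberty 2, the highest library for GRIA1, GRIA2, GRIA4 and GRIN1. There it came mostly from SLC17A6, a vesicular glutamate transporter gene (53.3 FPKM). LHX9 was also highest in that library (3.07 FPKM, next 1.85 FPKM in Postpuberty 2), whereas TCF7L2 (3.16 FPKM) and PRKCD (1.49 FPKM) were not. The part of the dissected region in the subunit levels was not tested. Neuron content also varied: the summed FPKM of 9 neuron markers was 637 to 1639 at prepuberty, 395 to 1331 at puberty and 537 to 1452 at postpuberty. In such bulk tissue, fewer neurons and less RNA per neuron cannot be told apart.

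GRIA1 was the leading AMPA subunit gene in all 9 libraries. GRIA2 came next in 6 of them, GRIA3 in 2 and GRIA4 in 1, and GRIA3 was the most variable of the 4. GRIA1 lies on chromosome 5 from 62551974 to 62905240 (ARS-UI_Ramb_v3.0), GRIA2 on chromosome 17 from 41974485 to 42173672, GRIA3 on chromosome X from 107219990 to 107531034 and GRIA4 on chromosome 15 from 1498196 to 2166460. GRIA1, the subunit best known for activity-dependent insertion at synapses, was at 20.8, 55.2 and 31.3 FPKM in the prepuberty libraries, 38.1, 8.01 and 19.5 FPKM in the puberty libraries and 29.1, 47.0 and 24.6 FPKM in the postpuberty libraries, each in the order of replicates 1 to 3. Puberty 2 gave the lowest value and Prepuberty 2 the highest, and the stages overlapped. The stage means were 35.8 ± 17.6, 21.9 ± 15.2 and 33.5 ± 11.9 FPKM (SD, n = 3), and the puberty mean was 28.8 FPKM without Puberty 2. GRIA2, the subunit that sets calcium impermeability, was at 4.60, 31.7 and 7.40 FPKM at prepuberty, 9.54, 1.10 and 8.34 FPKM at puberty and 10.0, 15.5 and 8.45 FPKM at postpuberty. Prepuberty 2 stood above every other library, and the highest of the 8 libraries was 6.89 times the lowest.

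GRIA3 showed a different pattern among animals. It was at 3.73, 1.92 and 8.93 FPKM at prepuberty, 12.5, 0.0648 and 1.98 FPKM at puberty and 2.91, 2.76 and 1.66 FPKM at postpuberty. Prepuberty 3 and Puberty 1 were the high libraries, and Prepuberty 2, the richest library for the other AMPA genes, was among the low ones. GRIA4, a subunit of fast-gating AMPA receptors, was the steadiest, at 4.03, 9.59 and 5.70 FPKM at prepuberty, 8.27, 1.72 and 5.35 FPKM at puberty and 7.04, 7.76 and 5.90 FPKM at postpuberty. Over the 8 libraries the coefficient of variation was 26.8% for GRIA4, 38.4% for GRIA1, 71.5% for GRIA2 and 87.6% for GRIA3. In Puberty 2 each of the 4 AMPA genes was below its lowest value in the other libraries.

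**Figure D1:**
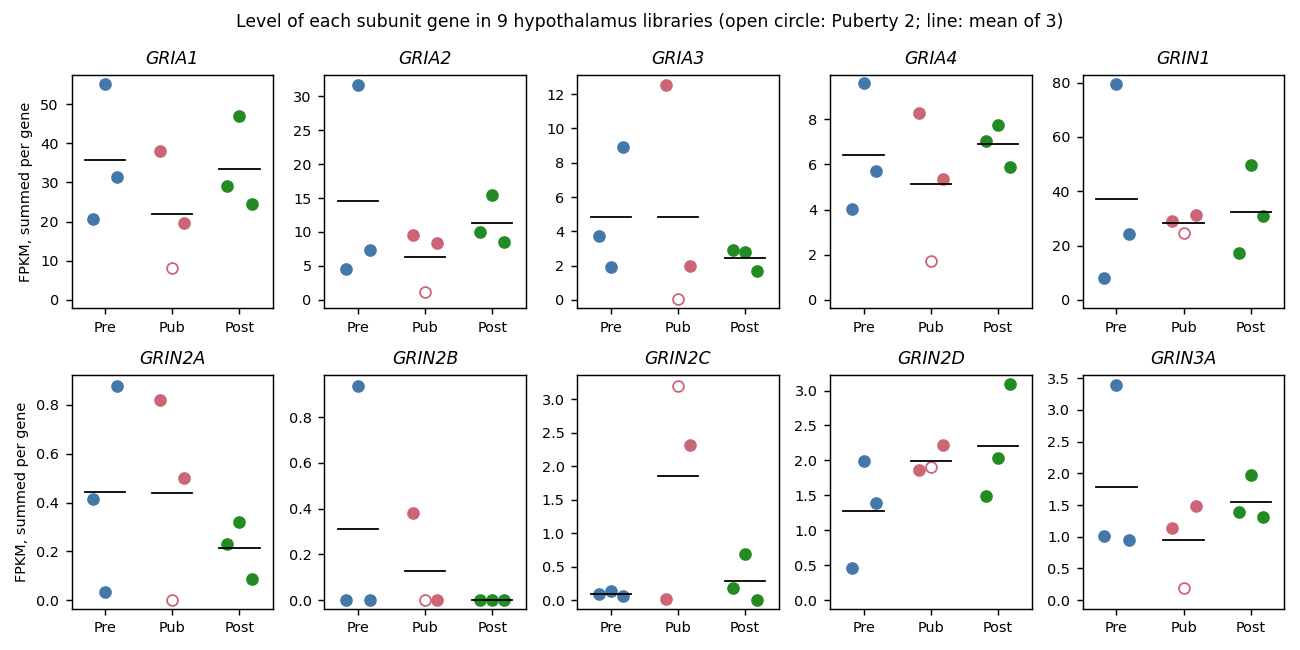
Summed FPKM of each subunit gene by stage, each panel with its own scale from 0; a point is 1 library, the open circle is Puberty 2 and the line is the mean of the 3 libraries. The open circle is the lowest point in the panels of the 4 GRIA genes, GRIN2A and GRIN3A and the highest in the panel of GRIN2C, and the stages overlap in every panel.

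Among the NMDA genes GRIN1 was abundant and every GRIN2 gene was low in the sums of RefSeq mRNA transcripts. GRIN1 lies on chromosome 3 from 764016 to 788346, GRIN2A on chromosome 24 from 9017350 to 9457514, GRIN2B on chromosome 3 from 201476037 to 202004971, GRIN2C on chromosome 11 from 55882713 to 55899248, GRIN2D on chromosome 14 from 54839287 to 54877959 and GRIN3A on chromosome 2 from 21341362 to 21543968. GRIN1, the obligatory subunit, was at 8.18, 79.4 and 24.2 FPKM at prepuberty, 28.9, 24.6 and 31.1 FPKM at puberty and 17.1, 49.5 and 30.9 FPKM at postpuberty. The highest of these was 9.71 times the lowest, both were prepuberty animals, and Puberty 2 lay within the range of the others. The stage means were 37.3 ± 37.4, 28.2 ± 3.28 and 32.5 ± 16.3 FPKM (SD, n = 3), with a puberty mean of 30.0 FPKM when Puberty 2 was left out.

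GRIN2D, which forms slow channels with weak magnesium block and is typical of the diencephalon and brainstem, was the most abundant GRIN2 gene by mean. It was at 0.460, 1.99 and 1.39 FPKM at prepuberty, 1.87, 1.90 and 2.22 FPKM at puberty and 1.49, 2.03 and 3.09 FPKM at postpuberty. Prepuberty 1 was the low library, and the other 8 lay within 1.39 to 3.09 FPKM. GRIN2A, the subunit that in forebrain gains weight with maturation, was at 0.413, 0.0345 and 0.879 FPKM at prepuberty, at 0.818, 0 and 0.499 FPKM at puberty and at 0.231, 0.320 and 0.0856 FPKM at postpuberty. GRIN2B, the partner subunit of the immature forebrain, was listed at 0 in 7 libraries and at 0.937 FPKM in Prepuberty 2 and 0.380 FPKM in Puberty 1. Each of these last 2 genes is represented by 1 transcript and neither passed 1 FPKM in any library.

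GRIN2C, a subunit best known from cerebellar granule cells, was at 0.0887, 0.136 and 0.0644 FPKM at prepuberty, 0.0226, 3.20 and 2.32 FPKM at puberty and 0.185, 0.690 and 0 FPKM at postpuberty. The high values were those of Puberty 2 and Puberty 3, whereas Puberty 1 was among the lowest. Markers of other cells were extreme in the same libraries. CLDN5, the claudin of brain endothelium, was at 624 FPKM in Puberty 2 and at 54.6 to 114 FPKM in the other 8, whereas the other 4 endothelial and mural markers PECAM1, FLT1, CDH5 and RGS5 were each lowest in Puberty 2. TTR, the transthyretin gene of choroid plexus, was at 7594 FPKM in Puberty 3 and at 9.07 to 723 FPKM in the others, and the other 2 ependymal and choroid plexus markers in the table, KCNJ13 and FOXJ1, were also highest in Puberty 3, at 29.8 and 11.8 FPKM. The summed striatum neuron markers were also highest in Puberty 2 (50.5 FPKM) and Puberty 3 (35.4 FPKM), against 12.4 to 27.8 FPKM in the others. They came mostly from PPP1R1B, at 44.3 and 28.5 FPKM. The cortex, hippocampus and amygdala sum was highest in Puberty 3 (59.1 FPKM), but at 4.79 FPKM in Puberty 2. The part of these cells in the GRIN2C values was not tested. GRIN3A, which lowers calcium entry through NMDA receptors, was at 1.01, 3.39 and 0.955 FPKM at prepuberty, 1.14, 0.197 and 1.49 FPKM at puberty and 1.38, 1.97 and 1.32 FPKM at postpuberty, with Prepuberty 2 the highest and Puberty 2 the lowest.

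The order of the 10 genes by mean FPKM over the 8 libraries other than Puberty 2 was GRIN1 (33.7), GRIA1 (33.2), GRIA2 (11.9), GRIA4 (6.71), GRIA3 (4.55), GRIN2D (1.82), GRIN3A (1.58), GRIN2C (0.439), GRIN2A (0.410) and GRIN2B (0.165). By mean over all 9 libraries GRIN1 ranked 1324 and GRIA1 1435 of the 21284 genes. Each of the 9 pairs of neighbours in this order was compared within libraries on log2(FPKM + 1) by a two-sided exact sign-flip permutation test, adjusted over the 9 pairs. GRIA1 exceeded GRIA2 in 8 of 8 libraries by 1.52 ± 0.42 on the log2 scale (SD, exact adjusted p = 0.0352). GRIA2 exceeded GRIA4 in 8 of 8 by 0.58 ± 0.48 (exact adjusted p = 0.0352), and GRIN3A exceeded GRIN2C in 7 of 8 by 0.92 ± 0.65 (exact adjusted p = 0.0469). The other 6 pairs did not differ beyond their spread (exact adjusted p from 0.158 to 0.766), among them GRIN1 and GRIA1, where GRIN1 was higher in 4 of 8 libraries. With Puberty 2 included, the difference of GRIA1 and GRIA2 held in 9 of 9 libraries (exact adjusted p = 0.0352), and that of GRIA2 and GRIA4 (exact adjusted p = 0.105) and that of GRIN3A and GRIN2C (0.299) did not pass.

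GRIA1 and GRIN1 held most of their class in every library. A share within a library does not depend on scaling between libraries. GRIA1 made up 55.5% to 64.4% of the AMPA subunit FPKM in the 8 libraries (59.1% ± 3.31, SD, n = 8), and 73.5% in Puberty 2. GRIA2 held 13.9%, 32.2% and 13.9% at prepuberty, 13.9%, 10.1% and 23.7% at puberty and 20.5%, 21.2% and 20.8% at postpuberty. The 3 postpuberty animals lay close together, whereas the earlier stages each held a low and a high library. GRIA3 held 11.3%, 1.95% and 16.7% at prepuberty, 18.3%, 0.594% and 5.62% at puberty and 5.94%, 3.79% and 4.08% at postpuberty. In Prepuberty 3 and Puberty 1 GRIA3 took the place after GRIA1, which GRIA2 had in the 6 others of the 8 libraries. GRIA4 held 9.75% to 15.2% in the 8 libraries and 15.8% in Puberty 2.

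GRIN1 made up 80.6%, 92.4% and 88.0% of the NMDA subunit FPKM at prepuberty, 87.2%, 82.3% and 82.6% at puberty and 83.9%, 90.8% and 87.3% at postpuberty (86.6% ± 4.04 over the 8 libraries, SD, n = 8). Set against the sum of the 4 GRIN2 genes, GRIN1 was 6.16 to 25.6 times as high in the 8 libraries, with a median of 9.53, and 4.82 times in Puberty 2. GRIN2D held 2.32% to 8.75% and GRIN3A 3.45% to 9.92% in the 8 libraries. GRIN2C held 10.7% in Puberty 2 and 6.18% in Puberty 3, and no more than 1.26% elsewhere. GRIN2A was the sole detected gene of the GRIN2A and GRIN2B pair in 6 libraries, made up 68.3% of the pair in Puberty 1 and 3.55% in Prepuberty 2, and had no share in Puberty 2, where both were listed at 0.

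**Figure D2:**
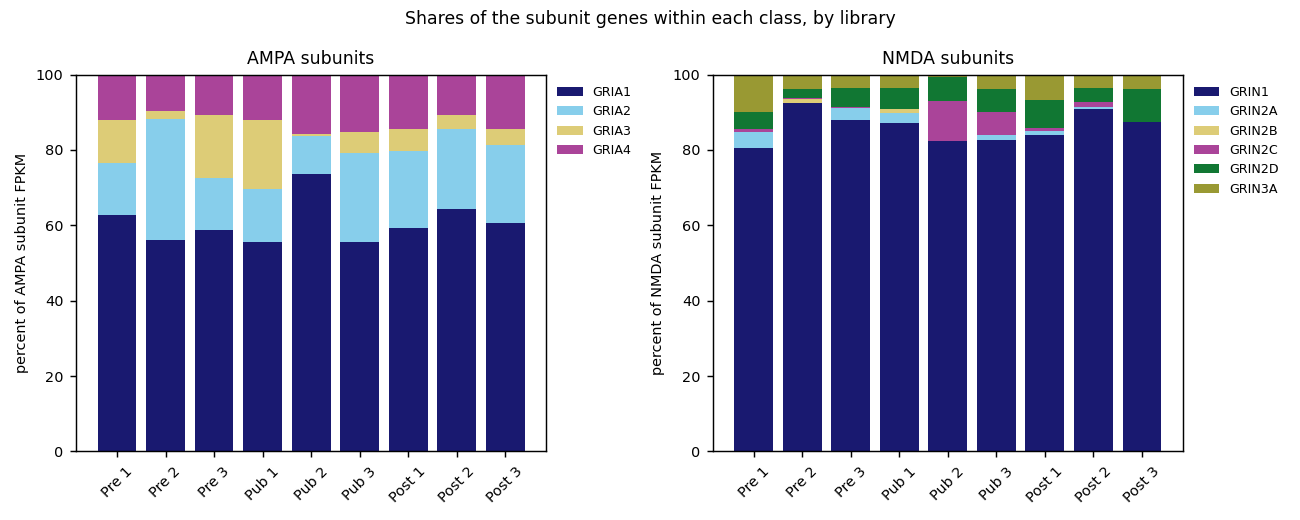
Stacked bars of the share of each subunit gene, in percent of the summed FPKM of its class, for each of the 9 libraries (Pre, prepuberty; Pub, puberty; Post, postpuberty). GRIA1 and GRIN1 are the largest segments in every bar, GRIA3 is widest in Pre 3 and Pub 1, and GRIN2C is visible chiefly in Pub 2 and Pub 3.

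No share passed the test across stages with all 9 libraries or without Puberty 2. The percent of variance lying between stages was tested for the 10 gene shares, GRIN2A within its pair, both class totals and their ratio, 14 quantities in all, by a two-sided exact permutation test over all 1680 assignments of the 9 libraries to stages (560 assignments of 8 libraries for GRIN2A within its pair, which has no value in Puberty 2). The exact p was 0.939 for the share of GRIA1, 0.764 for GRIA2, 0.639 for GRIA3 and 0.168 for GRIA4. It was 0.582 for GRIN1, 0.204 for GRIN2C, 0.229 for GRIN2D and 0.382 for GRIN3A, and the p adjusted over the 14 quantities lay between 0.917 and 1. Without Puberty 2, over 560 assignments, the exact p of GRIA1 was 0.154 and that of GRIA4 0.321, and the adjusted p lay between 0.929 and 0.968. In these libraries the GRIA1 share at puberty (55.7% and 55.5%) lay below every prepuberty (56.1% to 62.7%) and postpuberty library (59.3% to 64.4%). The exact p was 0.2 against prepuberty and 0.1 against postpuberty, the smallest that 2 against 3 allows. Puberty 2 had the highest GRIA1 share of all libraries (73.5%). With it the puberty mean was 61.5%, above that of prepuberty (59.2%) and near that of postpuberty (61.4%), so that the direction rests on leaving it out. Also without Puberty 2, where it was 0, the GRIN2A share at puberty (2.47% and 1.33%) lay above postpuberty (0.242% to 1.13%, exact p = 0.1). The share of GRIN2D was 4.54%, 2.32% and 5.05% at prepuberty, 5.64%, 6.36% and 5.91% at puberty and 7.31%, 3.72% and 8.75% at postpuberty. Its prepuberty and puberty libraries did not overlap (exact p = 0.1, the smallest that 3 against 3 allows, and 0.2 without Puberty 2). Each of the 9 libraries was also left out in turn. The exact p of the GRIN2D share then ranged from 0.00357 to 0.529 (not adjusted). The lowest came without Postpuberty 2, which moved its variance between stages from 38.7% to 78.4%. The exact p of the GRIN2C share ranged from 0.0214 to 0.311 (not adjusted), and the lowest came without Puberty 1 (89.1%). In each case the library left out was the one farthest from the others of its stage, so that these lowest values are a description.

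The summed AMPA subunits were at 33.1, 98.4 and 53.3 FPKM at prepuberty, 68.4, 10.9 and 35.2 FPKM at puberty and 49.1, 72.9 and 40.6 FPKM at postpuberty. Stage means were 61.6 ± 33.4, 38.2 ± 28.9 and 54.2 ± 16.8 FPKM (SD, n = 3). The puberty mean was the lowest of these. Without Puberty 2 it was 51.8 FPKM, still the lowest but nearer to the other stages. Stage accounted for 22.5% of the variance of the log2 total with all 9 libraries (exact p = 0.504) for 1.97% without Puberty 2 (exact p = 0.957) and for 51.6% without Puberty 1 (exact p = 0.157). The summed NMDA subunits were at 10.1, 85.9 and 27.5 FPKM at prepuberty, 33.1, 29.9 and 37.6 FPKM at puberty and 20.4, 54.6 and 35.4 FPKM at postpuberty. Here the puberty animals lay within the range of both other stages (1.73% of the variance between stages, exact p = 0.943, and 2.19% without Puberty 2, exact p = 0.939), and the largest share with 1 library left out was 42.3%, without Prepuberty 2 (exact p = 0.229).

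The ratio of the AMPA to the NMDA total was 3.26, 1.15 and 1.94 at prepuberty, 2.07, 0.365 and 0.936 at puberty and 2.40, 1.34 and 1.15 at postpuberty. AMPA subunits exceeded NMDA subunits in 7 of the 9 libraries, and the 2 exceptions, Puberty 2 and Puberty 3, were puberty animals. Stage accounted for 28.8% of the variance of its log2 value (exact p = 0.343), for 11.2% without Puberty 2 (exact p = 0.732) and for 58.7% without Puberty 1 (exact p = 0.0821).

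For the stage differences of single genes, limma was fitted to log2(FPKM + 1) of the 14238 genes whose mean reached 0.5 FPKM in at least 1 stage. Of the 10 subunit genes 8 passed this filter. GRIN2A and GRIN2B did not, and GRIN2C passed through its puberty mean alone. A gene was called at an adjusted p below 0.05 and an absolute log2 difference of at least 1.

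Between prepuberty and puberty, no subunit gene was called. GRIA1 was lower at puberty by -0.82 (SE 0.55) on the log2(FPKM + 1) scale, GRIA2 by -0.96 (SE 0.76), GRIA3 by -0.56 (SE 0.82), GRIA4 by -0.38 (SE 0.46) and GRIN3A by -0.48 (SE 0.39). Without Puberty 2 the differences were -0.27, -0.22, 0.30, 0.11 and -0.16, so that GRIA3 and GRIA4 changed sign and the other 3 kept theirs at a smaller size. GRIN1 differed by 0.13 (SE 0.69) and GRIN2D by 0.45 (SE 0.32), and by 0.22 and 0.48 without Puberty 2. GRIN2C was 1.15 (SE 0.47) higher at puberty (limma, Benjamini-Hochberg adjusted p = 0.838), and 0.75 (SE 0.47, limma adjusted p = 1) without Puberty 2 and 1.77 (SE 0.27, limma adjusted p = 0.451) without Puberty 1, the low library of its stage. As it entered the fit through its puberty mean, this direction was in part set by the filter. By limma 0 of 8 members and 0 of 14238 genes (0%) were called, 259 genes (1.82%) had an unadjusted p under 0.05, among the members GRIN2C alone, and without Puberty 2 the latter were 0 members and 236 genes (1.66%). Leaving out Puberty 1 instead gave 3 members with an unadjusted p under 0.05, GRIA1 (-1.32), GRIA3 (-1.53) and GRIN2C, among 728 genes, and leaving out Puberty 3 gave 0 members among 625 genes, with no gene called by limma in either fit. The libraries of the 2 stages overlapped for 8 of 8 members, where 5.16% of all genes tested did not overlap in either direction, and without Puberty 2 for 9 of 9 members, where 11.7% did not. The median log2 difference was -0.43 over the 8 members and -0.14 over all genes tested, and 0.22 over 9 members and 0.02 over all genes when Puberty 2 was left out.

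Between puberty and postpuberty, the AMPA genes GRIA1, GRIA2 and GRIA4 were 0.78 (SE 0.55), 1.02 (SE 0.76) and 0.53 (SE 0.46) higher at postpuberty on the log2 scale, and 0.23, 0.27 and 0.03 higher without Puberty 2. GRIA3 differed by -0.04 (SE 0.82) with and -0.90 (SE 0.70) without that library. The NMDA genes differed by 0.08 (SE 0.69) for GRIN1, -0.94 (SE 0.47) for GRIN2C, 0.07 (SE 0.32) for GRIN2D and 0.45 (SE 0.39) for GRIN3A. Without Puberty 2 these were -0.0069, -0.55, 0.05 and 0.14, and GRIN1 changed sign. Without Puberty 1 the difference of GRIN2C was -1.57 (SE 0.27, limma adjusted p = 0.544). Its puberty mean alone brought GRIN2C into the fit. Its direction here, and its place in the counts below, were thus in part set by the filter and are a description of its values. None was called by limma (smallest adjusted p among the members 0.780). Among all genes tested 0 (0%) were called and 305 (2.14%) had an unadjusted p under 0.05, of which none was a member, and 300 (2.11%) without Puberty 2. These were 750 genes with GRIA1 (1.29) and GRIN2C among them without Puberty 1, 836 genes and no member without Puberty 3, and 197 genes and no member without Postpuberty 1. With all 9 libraries 0 of 8 members separated the stages, against 7.32% of all genes. Without Puberty 2, GRIN2A passed the filter through its puberty mean, with 0.818 and 0.499 FPKM at puberty above 0.231, 0.320 and 0.0856 FPKM at postpuberty (log2 difference -0.45, SE 0.27, limma adjusted p = 1). It was the 1 member of 9 whose stages did not overlap, where 6.19% of genes were separated in that direction and 14.1% in either. Since the filter kept GRIN2A through the stage where it was higher, this is a description of its values. The median difference was 0.27 over the 8 members and 0.19 over all genes, and 0.03 over 9 members and 0.03 over all genes without Puberty 2.

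Between prepuberty and postpuberty, the stages that do not include Puberty 2, 7 of the 8 differences were smaller than their standard errors. They were -0.03 (SE 0.55) for GRIA1, 0.05 (SE 0.76) for GRIA2, -0.60 (SE 0.82) for GRIA3, 0.15 (SE 0.46) for GRIA4, 0.22 (SE 0.69) for GRIN1, 0.20 (SE 0.47) for GRIN2C, 0.52 (SE 0.32) for GRIN2D and -0.02 (SE 0.39) for GRIN3A. The exception was GRIN2D (limma unadjusted p = 0.134, adjusted p = 1). By limma 0 genes (0%) were called and 116 (0.815%) had an unadjusted p under 0.05, none of them a member. Array weights, which give divergent libraries less weight, put GRIA3 at -1.43 (SE 0.57) and GRIN2D at 0.51 (SE 0.21). Both then had a limma unadjusted p under 0.05 (adjusted p = 0.533 and 0.543), among 1244 such genes, none called. Without Puberty 2 and with the neuron index described below as covariate, GRIN2D was at 0.51 (SE 0.18, limma unadjusted p = 0.030). It was then the 1 member among 368 such genes, none called. No member separated the 2 stages, against 4.57% of all genes, or 4.53% of those kept when Puberty 2 was left out of the filter. Puberty 2 still entered the estimate of spread that the 3 stages share, and so the standard errors above. With Puberty 2 left out of the whole fit, 265 genes (1.87%) and no member had a limma unadjusted p under 0.05. The SE of GRIA4 was then 0.29. The 3 comparisons share libraries pairwise and are not independent of each other. With 3 animals in each of 2 stages, the smallest two-sided exact p that relabelling allows is 0.1.

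**Figure D3:**
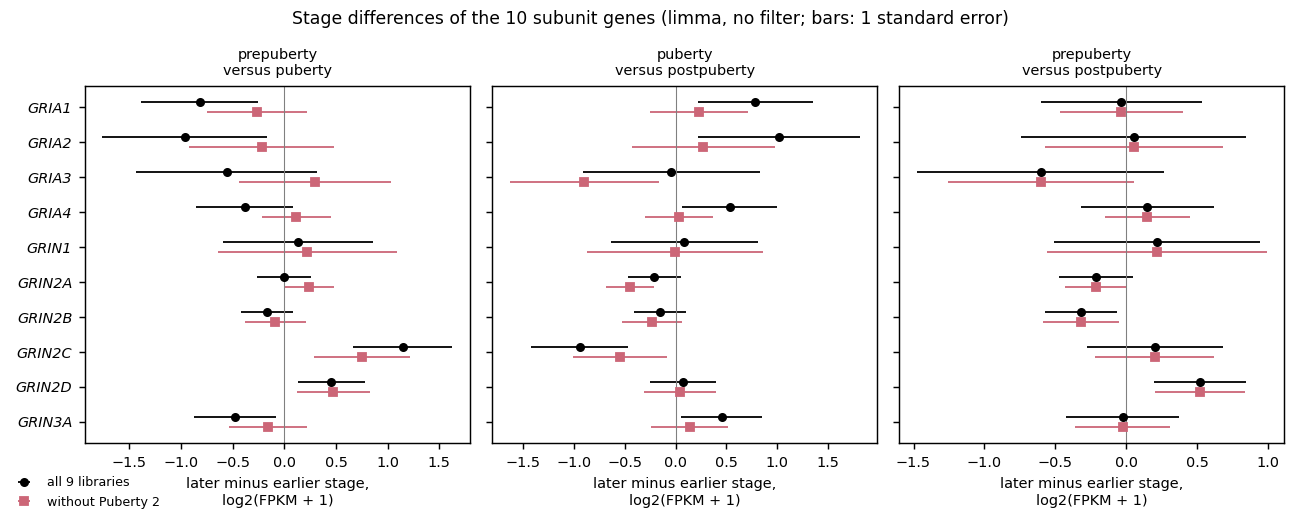
Difference between stages of each subunit gene on the log2(FPKM + 1) scale, later minus earlier stage, from limma without a filter on low values, with bars of 1 standard error; circles use all 9 libraries and squares leave out Puberty 2. The GRIA circles lie left of 0 between prepuberty and puberty, and the squares of GRIA3 and GRIA4 lie right of it.

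Neuron marker content varied among animals of the same stage, as did both class totals. A neuron index was taken as the mean log2(FPKM + 1) of 9 neuron markers. It was 4.76, 6.26 and 5.80 at prepuberty, 5.99, 4.17 and 5.84 at puberty and 4.86, 6.02 and 6.04 at postpuberty, so that Prepuberty 1 and Postpuberty 1 lay below the other libraries beside Puberty 2. Over the 8 libraries other than Puberty 2, 13 relations with this index were computed, 1 of them, that of the AMPA to NMDA ratio, chosen after its values were seen. Log2 levels of GRIN1 rose with the index (Pearson r = 0.886, exact permutation p = 0.000471, adjusted p = 0.00371; Spearman rho = 0.881, exact p = 0.00724, adjusted p = 0.0471). Without Prepuberty 1 and Postpuberty 1, the 2 libraries farthest from the median index, r was 0.863 over 6 libraries (exact p = 0.0347, adjusted p = 0.116), and within stages it was 0.903. Leaving out Prepuberty 1 alone gave r = 0.783 (exact p = 0.052).

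The AMPA total had r = 0.588 with the index (exact p = 0.136, adjusted p = 0.256, rho = 0.643) and GRIA3 had r = -0.03 (exact p = 0.971, rho = -0.619). GRIA1, GRIA2 and GRIA4 had r of 0.546, 0.608 and 0.594 (exact adjusted p from 0.234 to 0.256). Over the 6 libraries r was 0.714 for the AMPA total (exact adjusted p = 0.158) and 0.701, 0.879 and 0.826 for these 3 genes (exact adjusted p from 0.116 to 0.158). GRIN2D had r = 0.766 (exact adjusted p = 0.0617), which was 0.310 over the 6 libraries and 0.902 within stages. The ratio of the totals had r = -0.787 (exact adjusted p = 0.0498, rho = -0.714) over 8 libraries and -0.245 over 6, so that this relation rests on Prepuberty 1 and Postpuberty 1, the 2 libraries with the highest ratios. Puberty 2 had the lowest index together with the lowest ratio.

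**Figure D4:**
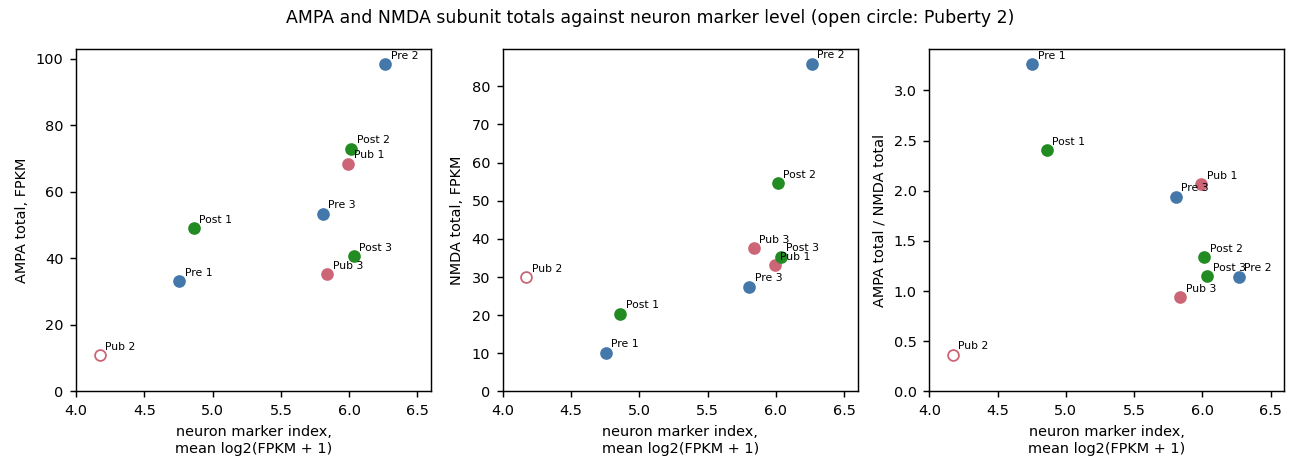
AMPA total, NMDA total (both in FPKM) and their ratio against the neuron marker index, in mean log2(FPKM + 1); each point is a named library and the open circle is Puberty 2. Pre 1 and Post 1 have low indices and the highest ratios, 3.26 and 2.40, whereas Pub 2 has the lowest index and a ratio of 0.365.

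The gene sums were spread over transcripts to different degrees. Of the 53 transcripts 20 had a mean of at least 1 FPKM, 1 of GRIN3A was listed at 0 in every library, and 27 were above 0 in Puberty 2, against 37 (Prepuberty 1) to 51 in each of the other libraries. GRIA2 was carried almost wholly by XM_004017287.6 and XM_004017288.6, which made up 96.3% to 99.0% of its FPKM in the 8 libraries. In Puberty 2 both were listed at 0 and its 1.10 FPKM came from XM_004017290.6. The leading pair of GRIA1, XM_004008999.4 and XM_004009000.4, made up 46.1% to 90.9% in the 8 libraries and 18.7% in Puberty 2. The former was 50.0% to 91.8% of that pair, so that the balance of these 2 transcripts differed widely among animals.

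GRIN1 was spread over 16 transcripts, 9 of them at a mean of at least 1 FPKM. Its leading pair, XM_027966074.2 and XM_027966076.2, made up 25.9% to 66.1% in the 8 libraries, with the former between 45.5% and 51.6% of the pair, and 70.0% in Puberty 2. All 16 were above 0 in Puberty 2 and in 7 others, and 9 in Prepuberty 1. Of the AMPA genes, Puberty 2 had 3 of the 11 transcripts of GRIA1 above 0 (7 to 11 in each other library), 1 of 4 of GRIA2 (4), 1 of 4 of GRIA3 (3 to 4) and 3 of 10 of GRIA4 (8 to 10). Short reads shared by near-identical transcripts are divided by estimation, so that these splits are less certain than the gene sums.

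**Figure D5:**
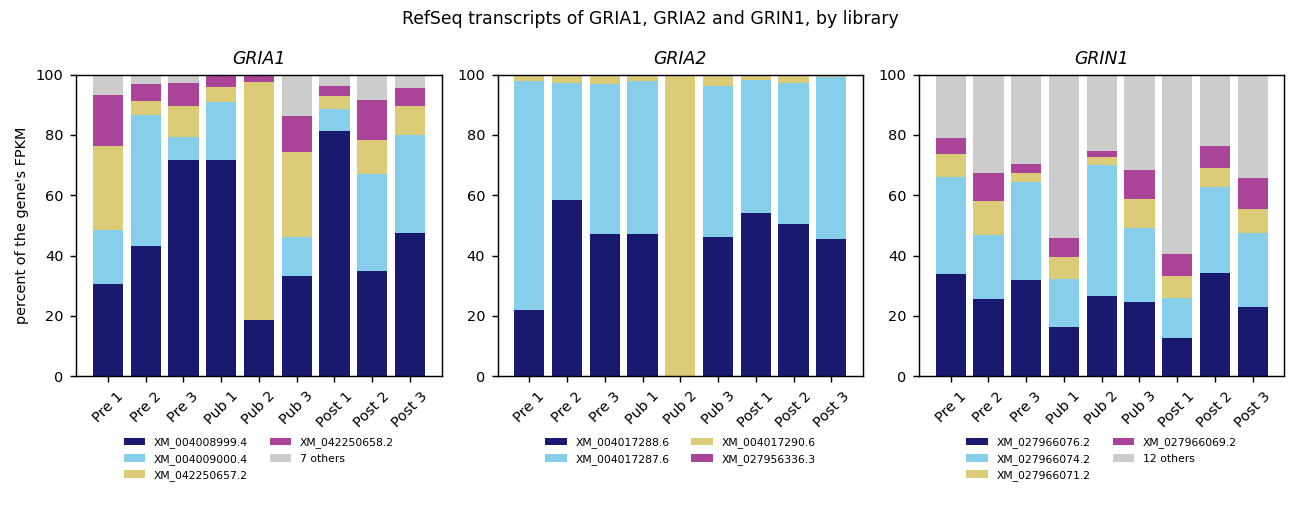
Stacked bars of the RefSeq transcripts of GRIA1, GRIA2 and GRIN1 as percent of the FPKM of the gene in each library, the transcripts named by accession and the remaining ones shown together in grey. For GRIA2 XM_004017290.6 fills the bar of Pub 2, whereas XM_004017287.6 and XM_004017288.6 fill 96.3% to 99.0% in the other 8 libraries.

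The genes most like GRIN1 and GRIA2 over the 8 libraries were taken by Pearson's r of log2(FPKM + 1) among 12280 genes, as a description of libraries that also share neuron content. Those most like GRIN1 were SPOCK2 (r = 0.993), SLC12A5, the neuronal chloride extruder KCC2 (0.989), and NCDN, the neuronal protein neurochondrin (0.989), and 584 genes had r over 0.9. Those most like GRIA2 were KCTD8, an auxiliary subunit of GABA-B receptors (0.994), SLC35B4 (0.993) and PAPOLB (0.987), with 302 genes over 0.9. For GRIN2B, above 0 in 2 libraries, they were RYR1 (0.982), TPBG (0.961) and FOXB1 (0.960), a likeness that rests on those 2 libraries. Among the members themselves GRIA2 went with GRIN3A (r = 0.946), GRIA2 with GRIN1 (0.890) and GRIA1 with GRIA4 (0.891).

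The other genes of the pathway gave no call by limma in any of the 3 comparisons, with or without Puberty 2. They were 7 of 8 kainate and delta receptor genes (GRIN3B included in that list), 7 of 8 metabotropic receptor genes, 15 of 15 AMPA auxiliary subunit genes and 21 of 22 scaffold and trafficking genes that passed the filter. CACNG7, a transmembrane AMPA receptor regulatory protein, was at 22.8 to 45.9 FPKM in the 8 libraries and 16.5 FPKM in Puberty 2, and CNIH2, a cornichon auxiliary subunit, at 3.74 to 17.1 and 7.11 FPKM. The kainate subunit GRIK3 was at 7.06 to 9.95 and 4.29 FPKM, and the delta subunit GRID1 at 6.34 to 10.7 and 4.02 FPKM. Both were thus steadier in the 8 libraries than most of the members. The metabotropic receptor GRM3 was at 13.0 to 34.5 and 7.69 FPKM and GRM4 at 1.30 to 15.8 and 0 FPKM. NSF, the ATPase that binds GRIA2, was at 22.7 to 158 and 11.7 FPKM, and HOMER3, a postsynaptic scaffold, at 11.1 to 33.4 FPKM and, against the others, higher in Puberty 2 at 50.0 FPKM.

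Between prepuberty and puberty most genes of each list had fitted values lower at puberty with all 9 libraries, whereas without Puberty 2 most scaffold and most kainate and delta genes had higher ones. With all 9 libraries, 1 of 15 auxiliary subunit genes (median log2 difference -0.40), 4 of 21 scaffold genes (-0.32), 1 of 7 kainate and delta genes (-0.25) and 0 of 7 metabotropic genes (-0.51) were higher at puberty, beside a median of -0.14 over all genes. Without Puberty 2 these counts were 5 of 15 (-0.01), 14 of 21 (0.11), 4 of 7 (0.04) and 1 of 7 (-0.30), beside 0.02 over all genes. No gene of these lists passed the test. DLG4, which encodes the postsynaptic scaffold PSD-95 that binds GRIN2 subunits, is named after its values were seen. It was at 9.30, 11.3 and 4.90 FPKM at prepuberty, 1.81, 0.268 and 2.33 FPKM at puberty and 2.66, 4.15 and 2.59 FPKM at postpuberty, so that the prepuberty libraries lay above all others. Its log2 difference was -1.99 (SE 0.43, limma adjusted p = 0.838) between prepuberty and puberty, and -1.57 (SE 0.33, limma adjusted p = 1) without Puberty 2. Of all genes tested, 5.16% did not overlap between these 2 stages in either direction, or 11.7% without Puberty 2. Between prepuberty and postpuberty 4.57% did not.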

How the data were processed

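Hypothalamus RNA of 9 ewes (3 per stage, 1 library each) had been sequenced. Per the labels and the study's methods, the authors trimmed reads with Trimmomatic, aligned them to ARS-UI_Ramb_v3.0 with HISAT2 and assembled transcripts with StringTie. The deposited values are FPKM per transcript as StringTie gives them, although described as raw counts. The authors' test on counts (RUVseq, edgeR) was therefore not applied, and values near 0 carry no read number. Of the 76684 mRNA rows 76682 matched a RefSeq symbol by accession, and they were summed per gene. Rows of transcripts assembled by StringTie without a RefSeq identifier, which may hold reads of the same loci, were not used, nor were noncoding rows in the sums. RefSeq coordinates are on ARS-UI_Ramb_v3.0.

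limma 3.58.1 (R 4.3.3, trend of variance with mean) was run on log2(FPKM + 1) with the 3 stages in 1 fit, no scaling beyond FPKM and Benjamini-Hochberg adjustment over all genes kept by the filter, and was tested on simulated data. Exact permutation tests used Python 3.11.15. The animals are separate, and the labels do not pair them by replicate number. Deviations from stage means correlated from -0.31 to 0.51 (median -0.08) over 9 pairs of the same number. Over 18 pairs of different numbers they correlated from -0.56 to 0.31 (median 0.03). All 10 members were named, with the 2 most abundant genes of each pathway list and the 3 genes most like GRIA2, GRIN1 and GRIN2B. The members and lists were chosen with earlier results of these data known. Alternatives were scaling, pseudocount, filter, array weights, replicate block, leading transcripts and leaving out each library, as well as, chosen after seeing the data, the neuron index as covariate, the filter dropped together with Puberty 2, upper-quartile scaling of the totals, and correlations with each library left out.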

Additional observations from a re-analysis of the deposited data

How the results depend on the processing

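No subunit gene was called under any setting run, and 0 genes of the table were called except with array weights, which down-weight divergent libraries and called 4 genes between prepuberty and puberty and 1 between puberty and postpuberty, none a member. With the replicate block 0 members and 0 genes were called in each comparison, and the pairing by number changed no call. Under the block, the exact p of the AMPA to NMDA ratio was 0.0556 (not adjusted), against 0.343 without it. As the labels do not pair the animals by number, this value is not read as a stage difference. Of 30 uncalled log2 differences of the members, 14 kept their sign under each setting run, and in 41 of 447 settings over all of them the sign turned. The cause was not tested.

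Signs turned as follows. Between prepuberty and puberty, array weights gave 0.15 for GRIA2, 0.22 for GRIA4 and 0.13 for GRIN3A. Without Puberty 2 and without a filter, GRIA3 was at 0.30, GRIA4 at 0.11 and GRIN2A at 0.24, and without Puberty 2 and with the neuron index as covariate GRIA3 was at 0.35, GRIN1 at -0.24 and GRIN2A at 0.27. Between puberty and postpuberty, GRIA3 was at 0.60 with a pseudocount of 0.1 and GRIA4 at -0.030 with array weights. GRIN1 was at -0.053 with upper-quartile scaling, -0.17 with the neuron index and -0.0069 without Puberty 2 and the filter, and GRIN2D at -0.028 with upper-quartile scaling, -0.21 with quantile normalization and -0.025 with the neuron index. Between prepuberty and postpuberty, GRIN3A was at 0.030 with a pseudocount of 0.1 and 0.29 with array weights.

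Leaving out each library in turn, differences between prepuberty and puberty ranged from -1.53 to 0.30 for GRIA3, -0.77 to 0.11 for GRIA4, and -0.63 to 0.93 for GRIN1. GRIN2A passed the filter in 2 of these fits, at -0.22 without Prepuberty 2 and 0.24 without Puberty 2. Between puberty and postpuberty they ranged from -0.90 to 0.93 for GRIA3, -0.27 to 0.47 for GRIN1 and -0.12 to 0.23 for GRIN2D. Between prepuberty and postpuberty they ranged from -0.36 to 0.33 for GRIA1, -0.47 to 0.80 for GRIA2, -0.10 to 0.44 for GRIA4, -0.55 to 1.02 for GRIN1, -0.0097 to 0.37 for GRIN2C and -0.23 to 0.36 for GRIN3A. Those of GRIA3 (-1.01 to -0.13) and GRIN2D (0.23 to 0.75) kept their sign but changed in size. The r with the neuron index ranged from -0.262 to 0.117 for GRIA3, -0.249 to 0.191 for GRIN2A and -0.00033 to 0.204 for GRIN2C. With 1 library left out, the share of GRIN2C had an unadjusted exact p from 0.0214 (without Puberty 1) to 0.311. That of GRIN2D ranged from 0.00357 (without Postpuberty 2), the smallest the design allows, to 0.529.

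The files hold no counts, so that the depth behind a low FPKM, as in GRIN2A and GRIN2B, is unknown. The number of animals, 3 per stage, limits the precision of each stage mean.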

Other observations

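GRIA3 was examined further after its values were seen, as it was high in Prepuberty 3 (8.93 FPKM) and Puberty 1 (12.5 FPKM). The gene most like it over the 8 libraries other than Puberty 2 was OTP, a homeodomain factor of hypothalamic neuroendocrine neurons (Pearson r = 0.912 among 12280 genes). OTP was at 4.91 FPKM in Prepuberty 3 and 4.78 FPKM in Puberty 1, and at 0.110 to 0.494 FPKM in the 6 others of these libraries. BLOC1S5 (0.902) and ADAMTS17 (0.897) came next. None of the other hypothalamic markers was highest in Prepuberty 3 or Puberty 1. In these libraries AVP was at 1.35 and 0.683 FPKM and SIM1 at 0 and 0.0116 FPKM. No more than 2 genes had r over 0.9 with GRIA3, against 584 with GRIN1. With 2 high libraries such a likeness rests on those libraries.

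The table also lists a noncoding RefSeq transcript each for GRIA2 and GRIA3. XR_006056646.2 of GRIA2 reached 0.159 FPKM, in Prepuberty 2, and XR_009598794.1 of GRIA3 reached 0.865 FPKM, in Prepuberty 1. The highest library of the GRIA3 noncoding transcript was thus not one of those in which its mRNA was highest. In Puberty 2 both were listed at 0.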
